A study of Mus musculus with 16 samples.

Results

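Livers of SSD-fed Klrk1-/- mice were compared with livers of chow-fed WT mice, the healthy reference of the study, to describe which parts of liver expression lay away from the healthy level and which lay near it when NKG2D was absent. The comparison took the 3 libraries labelled Klrk1 KO on SSD and the 4 libraries labelled WT on NCD, 7 of the 16 libraries of the series, and each library came from the whole liver of 1 male mouse fed from an age of 8 to 12 weeks. SSD, the steatosis-steatohepatitis diet, is rich in fat, fructose and cholesterol and was given for 3 weeks, and NCD is normal chow diet. Both diet and genotype differ between the groups, so their contributions cannot be told apart in this comparison. The 5 WT mice on SSD and the 4 Klrk1-/- mice on NCD are therefore given beside it. WT mice are labelled C57BL6J. The Klrk1-/- mice carry the label NKG2D as their strain and lack the gene in the whole body, and whether they were littermates of the WT mice was not stated in the sources used here.

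Klrk1 encodes NKG2D, an activating receptor of NK cells and several T cell subsets that binds stress-induced ligands of the RAE-1, H60 and MULT1 families. A cholesterol-rich diet is known to shut down sterol synthesis in hepatocytes through SREBP2 and to raise sterol export through LXR, while fatty acids activate PPARα. Diet-induced steatohepatitis adds macrophage recruitment, cell division and matrix deposition by stellate cells.

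Values are normalized counts, read counts that the study divided by 1 size factor per library, and they are listed in the order of the replicate numbers (1, 2, 3 and 5 for WT on NCD, 1 to 3 for Klrk1-/- on SSD). A gene was called when the adjusted p of the limma test was under 0.05 and the fold over 2, and it was termed near the healthy level when the whole 95% interval of its log2 fold change lay between -1 and 1. The recovered depth was 23309382 to 28225003 reads per library in SSD-fed Klrk1-/- mice and 19892025 to 24831536 in NCD-fed WT mice. Fold changes are differences of log2(value + 1), which understates the change of genes with a few reads in 1 group, such as Klrk1 and Cyp2a4 below. Each library is 1 mouse, so the p-values measure the spread between mice.

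Klrk1, on chromosome 6 (129587286 to 129600827, GRCm39), was measured at 22.9, 20.1, 28.7 and 21.0 in NCD-fed WT mice and at 0.966, 1.61 and 4.29 in SSD-fed Klrk1-/- mice. The groups did not overlap, and Klrk1 fell by 3.0 ± 0.44 on the log2 scale (SE, limma adjusted p = 0.000326), in the direction the labels give. It was 1.23 to 8.71 in NCD-fed Klrk1-/- mice and 32.9 to 71.1 in SSD-fed WT mice. In bulk tissue, fewer cells of a type and less RNA per cell cannot be told apart, here or below. The 5 hepatocyte markers summed to 1877472 to 2041333 in SSD-fed Klrk1-/- mice and to 2140303 to 2433013 in NCD-fed WT mice. The 4 Kupffer cell markers summed to 3630 to 4684 and to 3267 to 3597, and the 4 T and NK cell markers to 43.5 to 58.6 and to 21.7 to 40.4. None of these 4 was called (Ncr1 was not tested), and of the 14 tested genes of the T and NK cell list 0 rose, 3 were near, 9 were neither and 2 fell. Those were Cd4, the T cell co-receptor gene, at 35.7, 24.9 and 31.7 against 100.1, 106, 103 and 100.4, which fell by 1.72 ± 0.18 (limma adjusted p = 2.28e-05), and Zap70, a kinase of T cell receptor signalling, which fell by 1.17 ± 0.15 and lost its call with equal totals. Cd4 and Zap70 were also called lower in SSD-fed WT mice, and 0 of 10 tested members of the list were called in NCD-fed Klrk1-/- mice. Prss1 (pancreas) and Ly6g (neutrophils) were at 0 in all 7 mice. Adipoq (fat) was at 0 to 0.97 in SSD-fed Klrk1-/- mice and at 0 to 1.1 in NCD-fed WT mice, and Umod (kidney) at 0 and at 0 to 1.1, whereas Cela1, a pancreatic elastase gene, was at 155 to 171 against 478 to 730. Cela1 was at 155 to 203 in SSD-fed WT mice and at 599 to 852 in NCD-fed Klrk1-/- mice. The erythroid markers summed to 3534 to 12600 in SSD-fed Klrk1-/- mice, wider than the 4957 to 6957 of NCD-fed WT mice. The part of these markers in the results was not tested.

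Of 12910 genes tested, 417 (3.23%) rose and 489 (3.79%) fell in SSD-fed Klrk1-/- mice, 906 (7.02%) in all, while 10087 (78.1%) lay near the healthy level and 1917 (14.8%) were neither called nor near. The groups did not overlap for 4783 genes (37.0%), and for 884 of the called genes (6.85% of those tested). Setting every library to the same total moved the median of all genes by 0.23 on the log2 scale and gave 755 higher and 348 lower genes, so that 68.5% rather than 46.0% of the calls were rises. The values below are on the deposited scaling, and the count of each list is to be read against 3.23% higher, 3.79% lower and 78.1% near over all genes. The medians given below for the cell cycle list and, in the plot of list medians, for chemokines, MHC, interferon-stimulated, ribosomal, respiratory chain and hepatocyte genes lie slightly below 0 on it and above 0 with equal totals.

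**Figure D1:**
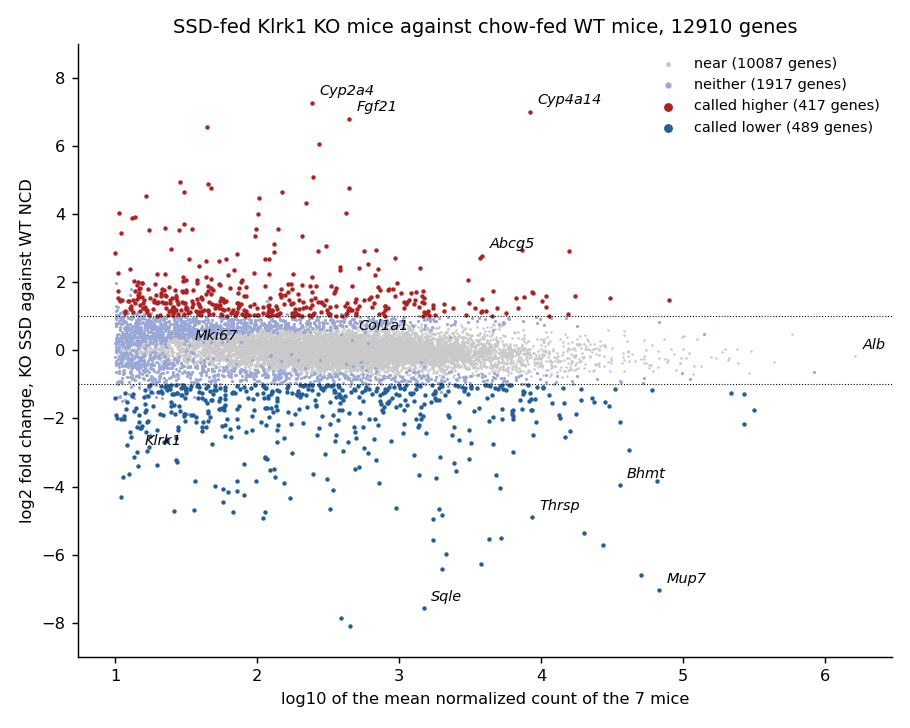
Log2 fold change of SSD-fed Klrk1-/- against NCD-fed WT mice (vertical axis) against the log10 mean normalized count of the 7 mice (horizontal axis), with 1 point per gene and dotted lines at a fold of 2. The 10087 near genes lie between the lines, 417 rose and 489 fell, with Cyp2a4 and Cyp4a14 among the highest and Sqle and Mup7 among the lowest.

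The same healthy mice served as the reference for the other groups, so the following values are set side by side only. Of the 417 genes that rose in SSD-fed Klrk1-/- mice, 280 were also called higher in SSD-fed WT mice, 0 were called lower, 24 were near, 98 were neither and 15 were not tested there, against 6.11% higher and 74.3% near over all genes tested in those mice. In NCD-fed Klrk1-/- mice, 55 of the 417 were called higher (0.849% of all genes) and 190 were near (86.9% of all genes). Of the 489 genes that fell, 288 were called lower in SSD-fed WT mice (2.9% of all genes), 3 were called higher and 50 were near. In NCD-fed Klrk1-/- mice 75 were called lower (0.856% of all genes) and 269 were near. The median log2 change of the 417 was 1.42 in SSD-fed Klrk1-/-, 1.32 in SSD-fed WT and 0.36 in NCD-fed Klrk1-/- mice. The medians for the 489 were -1.61, -1.30 and -0.37. The direct comparison of both SSD-fed genotypes gave 24 higher (0.183%) and 127 lower genes (0.968%) in Klrk1-/- mice of 13116 tested, 1.15% in all. That count of 151 rested on few mice: it was 35 without SSD-fed Klrk1-/- mouse 1 and 251 without SSD-fed WT mouse 5. A call against SSD-fed WT mice is accordingly given below with the number of fits, of the 8 that each left out 1 mouse, in which it held.

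**Figure D2:**
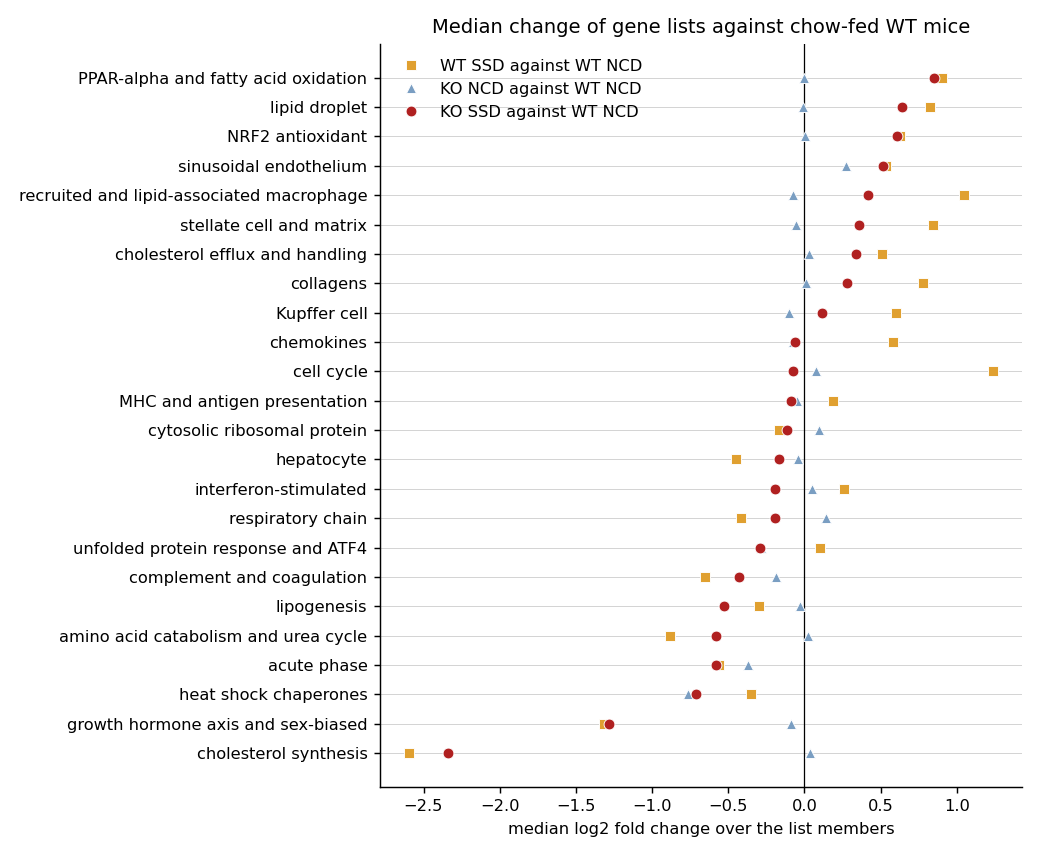
Median log2 fold change against NCD-fed WT mice (horizontal axis) of 24 gene lists (vertical axis), with circles for SSD-fed Klrk1-/-, squares for SSD-fed WT and triangles for NCD-fed Klrk1-/- mice, over the list members tested in SSD-fed Klrk1-/- mice. Cholesterol synthesis lies farthest to the left in both SSD-fed groups, at -2.34 and -2.59, whereas the cell cycle list is at -0.08 in SSD-fed Klrk1-/- and at 1.24 in SSD-fed WT mice.

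Among the lists plotted, genes of sterol synthesis stood farthest from the healthy level. All 25 tested members of the cholesterol synthesis list, enzymes from the mevalonate pathway to cholesterol and the SREBP2 targets around it, fell in SSD-fed Klrk1-/- mice, at a median log2 change of -2.34 (range -7.58 to -1.02), against 3.79% of all genes. In SSD-fed WT mice 24 of the same 25 fell (median -2.59), and in NCD-fed Klrk1-/- mice none did, with 23 near (median 0.04). Sqle, the squalene epoxidase, was at 2208, 2703, 3207 and 2243 in NCD-fed WT mice and at 11.6, 12 and 13.7 in SSD-fed Klrk1-/- mice. It fell by 7.58 ± 0.15 (limma adjusted p = 1.95e-11), without overlap. Mvd, Idi1 and Fdps, enzymes that make and join isoprenoid units, changed by -4.62, -4.92 and -4.04.

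Dhcr7, a late reductase of the pathway, was at 2684, 3634, 3707 and 2968 in NCD-fed WT mice, at 94.6, 124 and 171 in SSD-fed Klrk1-/- mice and at 274 to 374 in SSD-fed WT mice. All SSD-fed Klrk1-/- mice thus lay below all SSD-fed WT mice, and it fell by 1.33 ± 0.19 against them, a call that held in 8 of 8 fits (limma adjusted p = 0.00838).

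As these genes moved together, 4 of their promoters are shown, each as the 250 bases before the start of the RefSeq transcript, 5′ to 3′ on the strand of the gene. The sequences come from a RefSeq promoter table on GRCm38.p6, and the positions given are their exact matches in GRCm39. Capitals mark the CCAAT box, read on both strands as CCAAT or ATTGG, and the sterol response element core TCACNCCAC. Mvk lies at chr5:114582080-114582329 (plus strand), Msmo1 at chr8:65186613-65186862 (minus strand), Hmgcs1 at chr13:120151637-120151886 (plus strand) and Nsdhl at chrX:71961877-71962126 (plus strand).
Mvk: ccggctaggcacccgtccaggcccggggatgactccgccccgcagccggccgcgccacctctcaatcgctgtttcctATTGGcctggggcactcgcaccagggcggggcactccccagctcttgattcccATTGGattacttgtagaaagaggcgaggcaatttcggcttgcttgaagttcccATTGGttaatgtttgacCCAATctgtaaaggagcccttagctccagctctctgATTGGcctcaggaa
Msmo1: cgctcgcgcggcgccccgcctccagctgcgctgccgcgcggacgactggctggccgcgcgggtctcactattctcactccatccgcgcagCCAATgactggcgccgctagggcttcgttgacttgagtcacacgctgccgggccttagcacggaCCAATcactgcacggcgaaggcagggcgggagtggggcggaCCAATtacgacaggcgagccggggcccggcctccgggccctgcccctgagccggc
Hmgcs1: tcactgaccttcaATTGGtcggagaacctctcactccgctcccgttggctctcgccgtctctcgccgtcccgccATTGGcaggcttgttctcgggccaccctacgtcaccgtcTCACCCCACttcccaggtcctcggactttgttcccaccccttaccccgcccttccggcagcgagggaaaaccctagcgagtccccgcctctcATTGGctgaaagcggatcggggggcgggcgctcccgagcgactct
Nsdhl: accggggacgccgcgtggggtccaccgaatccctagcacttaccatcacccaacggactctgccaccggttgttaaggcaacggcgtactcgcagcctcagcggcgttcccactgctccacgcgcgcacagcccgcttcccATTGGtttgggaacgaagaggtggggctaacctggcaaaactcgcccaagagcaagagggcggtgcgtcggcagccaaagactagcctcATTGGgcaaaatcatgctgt
The 4 genes all fell, with log2 changes of -2.67 (Mvk), -3.54 (Msmo1), -1.75 (Hmgcs1) and -3.74 (Nsdhl). A CCAAT box was found in 16 of the 17 list members with a matched promoter (94.1%), against 40.5% of the 10032 tested genes with a promoter in the table and 37.5% of all 27025 genes of the table. It was also found in 22 of 29 cell cycle genes (75.9%), a list that did not move as a group in SSD-fed Klrk1-/- mice. The sterol motif was found in 1 of the 17, Hmgcs1, against 1.29% of those tested genes. These matches describe letters in a window and not bound sites.

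Sterol export and esterification genes rose in part. Of 16 tested members of the efflux and handling list, 5 rose (31.2%, against 3.23% of all genes), 0 fell and 10 were near (62.5%, against 78.1%). Abcg5, a subunit of the canalicular sterol exporter, was at 1049, 840, 1247 and 1275 in NCD-fed WT mice and at 7831, 8190 and 6572 in SSD-fed Klrk1-/- mice, a rise of 2.78 ± 0.14 (limma adjusted p = 7.42e-08) without overlap. Its partner Abcg8 rose by 2.72. Soat2, which esterifies cholesterol, rose by 1.34, and Mylip, a ubiquitin ligase gene, rose by 1.11. Lcat was near, at 0.13.

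Lipogenic genes divided. Of 22 tested, 9 fell (40.9%, against 3.79% of all genes), 0 rose and 12 were near (54.5%, against 78.1%), and the 9 that fell were also called lower in SSD-fed WT mice. Thrsp, a regulator of lipogenesis, was at 11588, 17312, 17080 and 12570 in NCD-fed WT mice and at 386, 470 and 611 in SSD-fed Klrk1-/- mice, and it fell by 4.90 ± 0.17 (limma adjusted p = 3.86e-09). Fasn, the fatty acid synthase, fell by 2.0 ± 0.19, and Acly, Acacb and Acss2 changed by -2.07, -3.07 and -2.75. In contrast, Scd1, the stearoyl-CoA desaturase, lay near, at 91198, 114090 and 125025 against 150438, 179943, 160227 and 114673, and the groups overlapped. Srebf1, the regulator of this programme, was near at -0.01.

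Some lipid droplet genes rose. Of 20 tested, 5 rose (25.0%, against 3.23% of all genes), 1 fell and 11 were near (55.0%, against 78.1%), and 8 were higher in SSD-fed WT mice. The member that fell was Abhd5, an activator of lipolysis, which fell by 1.06 and lost its call with equal totals. Cidec was the only one of the 20 called against SSD-fed WT mice. Cidec, which fuses droplets, was at 28.9, 22.2, 9.12 and 18.8 in NCD-fed WT mice, at 231, 171 and 197 in SSD-fed Klrk1-/- mice and at 519 to 1407 in SSD-fed WT mice. The 3 groups did not overlap. Cidec rose by 3.37 ± 0.31 above the healthy level (limma adjusted p = 9.24e-06). Against SSD-fed WT mice it fell by 2.12 ± 0.29 (limma adjusted p = 0.00833), a call that held in 8 of 8 fits. The droplet coat gene Plin4 rose by 2.55 ± 0.21, and was 869 to 1328 against 1410 to 2889 in SSD-fed WT mice, a difference of -0.69 ± 0.23 that did not pass (limma adjusted p = 0.127).

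Fatty acid oxidation genes controlled by PPARα held some of the largest rises. Of 32 tested, 13 rose (40.6%, against 3.23% of all genes), 0 fell and 12 were near (37.5%, against 78.1%), with a median of 0.85 against 0.90 in SSD-fed WT mice. Cyp4a14, an omega-hydroxylase, was at 170, 326, 88.6 and 97.1 in NCD-fed WT mice and at 18669, 18447 and 20777 in SSD-fed Klrk1-/- mice, a rise of 7.02 ± 0.34 (limma adjusted p = 5.27e-08). Cyp4a genes have near-identical copies, so the split of reads among them is uncertain. Fgf21, a fasting hormone secreted by the liver, was at 3.62, 15.1, 6.52 and 11 in NCD-fed WT mice and at 1123, 1040 and 894 in SSD-fed Klrk1-/- mice, a rise of 6.81 ± 0.34 without overlap. The acyl-CoA thioesterase genes Acot1 to Acot4 rose by 2.41, 2.9, 3.56 and 1.79. The regulator Creb3l3 was near at 0.01.

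Drug-metabolising genes moved both ways. Of 28 P450 genes of families 1 to 3, 8 rose (28.6%, against 3.23% of all genes), 2 fell (7.14%, against 3.79%) and 13 were near (46.4%, against 78.1%). Cyp2a4, a steroid hydroxylase, was at 1.21, 2.01, 2.61 and 5.52 in NCD-fed WT mice and at 427, 728 and 531 in SSD-fed Klrk1-/- mice, a rise of 7.28 ± 0.35 (limma adjusted p = 4.67e-08). It is nearly identical to Cyp2a5, which rose by 1.71, so their separation is uncertain. Cyp2b9 was at 0 in all 4 NCD-fed WT mice and at 54.1, 96.4 and 159 in SSD-fed Klrk1-/- mice, at least 29.7-fold higher than a floor of 3 reads per library. Cyp2c40 fell by 4.75 ± 0.26, whereas Cyp2e1 and Cyp2c29 were near, at 0.41 and 0.00. Of 20 NRF2 antioxidant genes, 6 rose (30%, against 3.23% of all genes), among them Nqo1 (1.65) and Gclc (1.29), and 9 were near (45.0%). Of 28 conjugation genes, 4 rose (14.3%), among them the glutathione transferase Gsta1 (2.67), and 6 fell (21.4%, against 3.79% of all genes). Nnmt, the nicotinamide methyltransferase, showed the largest fall of that list, from 3994, 2556, 3552 and 3732 to 62.8, 68.3 and 13.7, and it fell by 6.41 ± 0.42.

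Of 21 bile acid genes, 4 rose (19.0%, against 3.23% of all genes), 3 fell (14.3%, against 3.79%) and 10 were near (47.6%, against 78.1%). Cyp7a1, the rate-limiting enzyme of bile acid synthesis, was at 1480, 4200, 2982 and 978 in NCD-fed WT mice and at 285, 489 and 395 in SSD-fed Klrk1-/- mice. It fell by 2.44 ± 0.39 (limma adjusted p = 0.000691), and all 3 mice also lay below the 665 to 1251 of SSD-fed WT mice (it fell by 1.42 ± 0.21, limma adjusted p = 0.0114, called in 6 of 8 fits, adjusted p = 0.0703 without SSD-fed Klrk1-/- mouse 1). NCD-fed Klrk1-/- mice, at 556 to 971, lay below all NCD-fed WT mice as well, and it fell by 1.49 ± 0.35. Nr0b2, encoding the repressor SHP, rose by 1.36 ± 0.23, and by 1.95 ± 0.14 in NCD-fed Klrk1-/- mice. Abcc4, a basolateral exporter, rose by 2.37 ± 0.27, while Hsd3b7 and Slc27a5 were near.

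**Figure D3:**
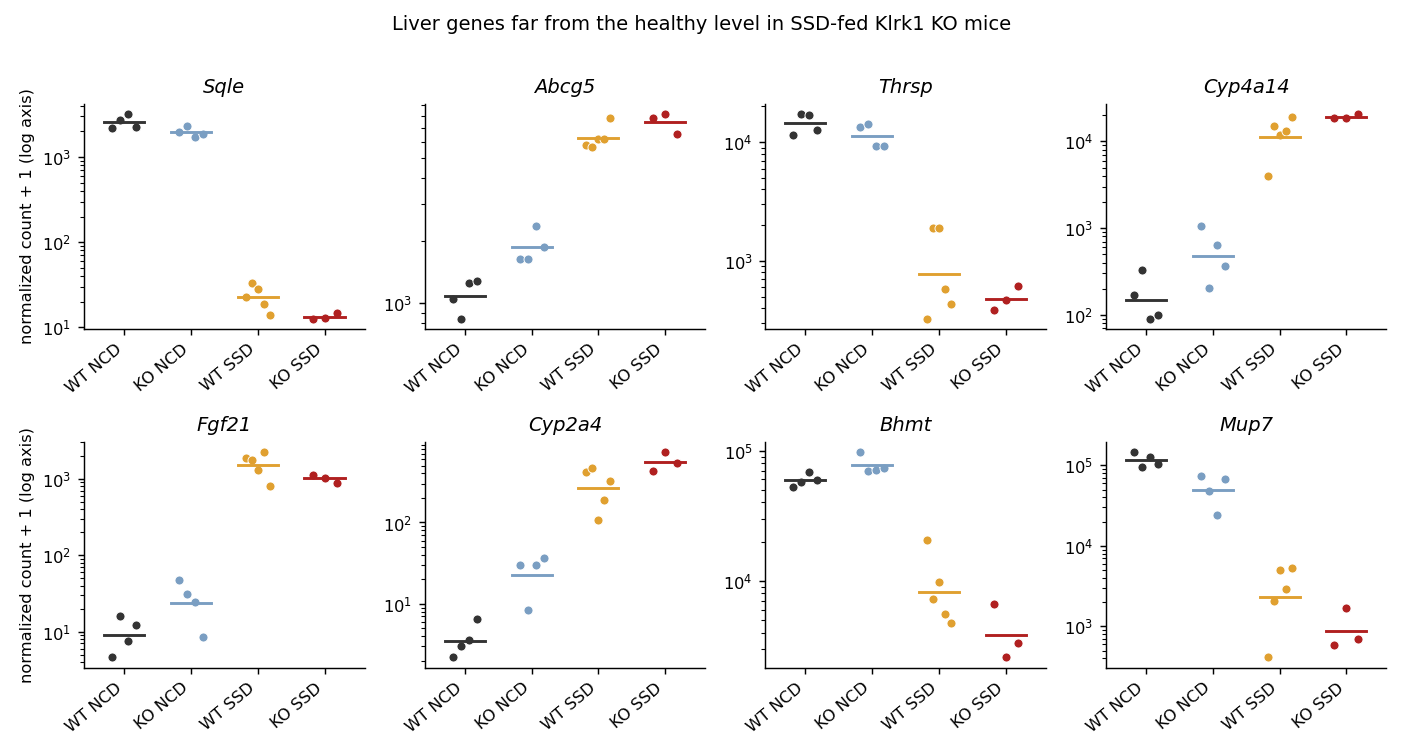
Normalized count plus 1 (log axis) of 8 genes that stood away from the healthy level, with 1 point per mouse, bars at the mean on the log scale and 4 groups per panel. In each panel the 3 SSD-fed Klrk1-/- mice lie apart from the 4 NCD-fed WT mice and on the side of the SSD-fed WT mice.

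The list of growth hormone axis and sex-biased genes, which holds Mup genes, enzymes, receptors and regulators, was the other large group of falls. Of 29 tested, 18 fell (62.1%, against 3.79% of all genes), 0 rose and 8 were near (median -1.28), against 16 that fell in SSD-fed WT mice (median -1.32) and 6 in NCD-fed Klrk1-/- mice (median -0.09). Mup7, a major urinary protein gene, was at 145261, 96512, 125546 and 104751 in NCD-fed WT mice and at 592, 1716 and 692 in SSD-fed Klrk1-/- mice, and it fell by 7.03 ± 0.29 (limma adjusted p = 1.11e-08). Mup17, Mup1 and Mup3 changed by -6.59, -5.57 and -1.28 (Mup3 lost its call with quantile normalization), although Mup genes are close copies of each other and reads may be split among them. NCD-fed Klrk1-/- mice were at 24055 to 73846 for Mup7, below all 4 healthy mice but well above both SSD-fed groups. Igf1, the growth hormone target of the same axis, was near at -0.50, as was Stat5a at 0.03.

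Some genes of amino acid catabolism fell. Of 41 tested, 7 fell (17.1%, against 3.79% of all genes), 0 rose and 26 were near (63.4%, against 78.1%; median -0.58), whereas 16 of the 41 fell in SSD-fed WT mice (median -0.88). The difference between these counts was not tested. Bhmt, the betaine-homocysteine methyltransferase, was at 52865, 57219, 68710 and 59108 in NCD-fed WT mice and at 6596, 2580 and 3299 in SSD-fed Klrk1-/- mice, and it fell by 3.95 ± 0.24 (limma adjusted p = 3.5e-07). Ass1, an enzyme of the urea cycle, fell by 1.53 ± 0.12, and Gnmt, the glycine methyltransferase, fell by 1.87. Hal, the histidine ammonia-lyase, was in contrast near, as described below. Of 35 complement and coagulation genes, 5 fell (14.3%, against 3.79% of all genes), including C6 (-1.94), C8b (-1.75), C9 (-1.54) and Hc, which lost its call with equal totals, and 26 were near (74.3%, against 78.1%). Apolipoprotein and lipoprotein assembly genes were near in 17 of 23 (73.9%), a share close to that of all genes, and 3 rose (13%). Of these Apoa4 rose by 2.91 ± 0.14, from 3314 to 4608 up to 27364 to 37747.

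Stress genes moved apart from each other within 1 list. Of 28 tested genes of the unfolded protein response and its ATF4 arm, 8 rose (28.6%, against 3.23% of all genes). A further 9 fell (32.1%, against 3.79%), and 10 were near (35.7%, against 78.1%). The medians were -0.29 here and 0.10 in SSD-fed WT mice. Those that rose were Atf5, Trib3, Asns, Chac1, Psat1, Phgdh, Nupr1 and Gdf15, known targets of ATF4. Atf3 and Sesn2 of the same list were called higher in SSD-fed WT mice but not here. Psat1, an enzyme of serine synthesis, was at 12.1, 12.1, 11.7 and 15.4 in NCD-fed WT mice and at 248, 190 and 220 in SSD-fed Klrk1-/- mice, a rise of 3.99 ± 0.20 (limma adjusted p = 5.79e-08), against 294 to 694 in SSD-fed WT mice. Phgdh, which precedes it, rose by 3.54 ± 0.35 and was below SSD-fed WT mice (-1.55 ± 0.29, limma adjusted p = 0.0256, called in 4 of 8 fits, adjusted p = 0.127 without SSD-fed Klrk1-/- mouse 1). Those that fell were 8 genes of chaperones and folding of the endoplasmic reticulum (Hspa5, Hsp90b1, Pdia4, Pdia6, Calr, Dnajb9, Sdf2l1 and Hyou1) and Ddit4. Calr lost its call with equal totals. Hspa5, which encodes BiP, was at 77003, 50519, 42581 and 46220 in NCD-fed WT mice, at 12685, 13447 and 10514 in SSD-fed Klrk1-/- mice, at 16422 to 25532 in SSD-fed WT mice and at 12618 to 27974 in NCD-fed Klrk1-/- mice. It fell by 2.11 ± 0.18 (limma adjusted p = 5.54e-06), and all other groups also lay below the healthy mice.

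Some cytosolic heat shock genes fell. Of 18 tested, 7 fell (38.9%, against 3.79% of all genes), 0 rose and 9 were near (50%, against 78.1%) in SSD-fed Klrk1-/- mice (median -0.71). In NCD-fed Klrk1-/- mice 6 fell (median -0.77) and in SSD-fed WT mice 0 (median -0.35), and the difference between these counts was not tested. Hspa1a and Hspa1b were the only ones of the 18 called against SSD-fed WT mice, Hspa1b in 6 of 8 fits (adjusted p = 0.0682 without SSD-fed Klrk1-/- mouse 3). Hspa1a, an inducible HSP70 gene, was at 73.6, 47.3, 69.1 and 83.9 in NCD-fed WT mice, at 10.6, 26.5 and 15.4 in SSD-fed Klrk1-/- mice, at 10.3 to 19.9 in NCD-fed Klrk1-/- mice and at 52.3 to 83.7 in SSD-fed WT mice. Both Klrk1-/- groups lay below both WT groups. It fell by 1.97 ± 0.30 against healthy mice (limma adjusted p = 0.000501) and by 2.06 ± 0.28 against SSD-fed WT mice (limma adjusted p = 0.00752), the latter in 8 of 8 fits. Hspa1b is a near-identical copy and fell by 1.81.

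Of 21 clock genes and outputs, 3 fell (14.3%, against 3.79% of all genes), 1 rose (4.76%, against 3.23%) and 13 were near (61.9%, against 78.1%). Noct, a rhythmic dinucleotide phosphatase, was at 614, 1159, 999.8 and 797 in NCD-fed WT mice and at 102, 130 and 123 in SSD-fed Klrk1-/- mice, and it fell by 2.87 ± 0.19 (limma adjusted p = 5.84e-07). NCD-fed Klrk1-/- mice were at 168 to 293, below all WT mice on either diet (470 to 1159), and against SSD-fed WT mice Noct fell by 2.17 ± 0.14 in 8 of 8 fits. Per2 fell by 2.26 ± 0.19, while the repressor Nr1d1 rose by 1.17 ± 0.20, and by 1.22 ± 0.26 in NCD-fed Klrk1-/- mice. Clock itself was near at -0.03. The time of day of tissue collection was not given in the labels.

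Some acute phase genes fell. Of 26 tested, 8 fell (30.8%, against 3.79% of all genes), 1 rose, 11 were near (42.3%, against 78.1%) and 6 were neither. Saa1, a serum amyloid gene, was at 2887, 3354, 7853 and 6215 in NCD-fed WT mice and at 537, 500 and 494 in SSD-fed Klrk1-/- mice, and it fell by 3.19 ± 0.28 (limma adjusted p = 5.52e-06). It was also at 664 to 1781 in NCD-fed Klrk1-/- mice and at 1094 to 3284 in SSD-fed WT mice, and the 3 SSD-fed Klrk1-/- mice were the lowest of all 16. Against SSD-fed WT mice it fell by 2.12 ± 0.30 (limma adjusted p = 0.00885), in 6 of 8 fits, with an adjusted p of 0.0547 without SSD-fed Klrk1-/- mouse 1. Its near-identical copy Saa2 fell by 3.66. Saa3, the form made largely by macrophages, was the only member that rose, from 172, 119, 169 and 212 to 344, 365 and 301, a rise of 1.02 ± 0.17 close to the limit of a fold of 2, so that the call held in 5 of 7 fits that left out 1 mouse and was lost with a pseudocount of 10. SSD-fed WT mice were higher at 549 to 1372 (Saa3 fell by 1.46 ± 0.26 against them, limma adjusted p = 0.0213, in 5 of 8 fits, adjusted p = 0.0975 without SSD-fed Klrk1-/- mouse 1).

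**Figure D4:**
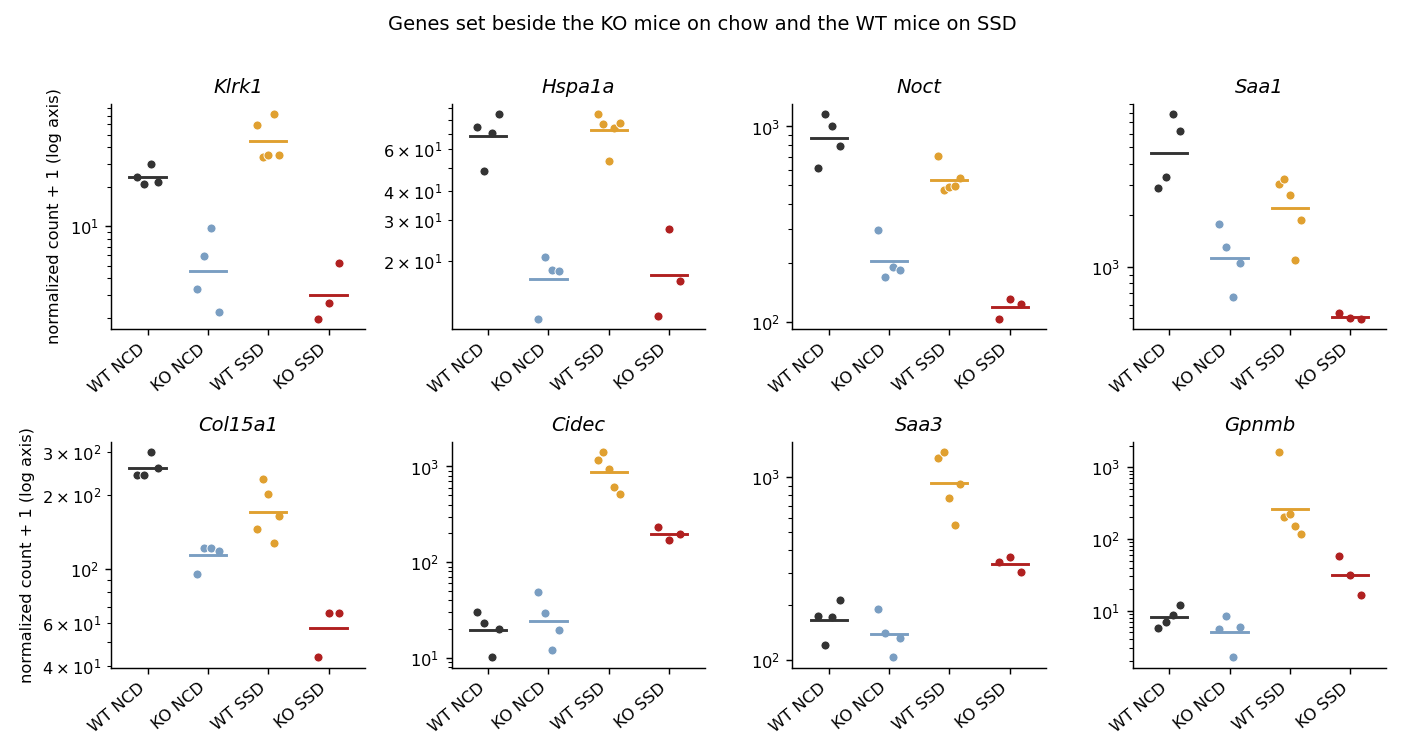
Normalized count plus 1 (log axis) of 8 genes, with 1 point per mouse, bars at the mean on the log scale and 4 groups per panel. Klrk1, Hspa1a, Noct, Saa1 and Col15a1 are lower in both Klrk1-/- groups than in NCD-fed WT mice, whereas for Cidec, Saa3 and Gpnmb the SSD-fed Klrk1-/- mice lie between NCD-fed WT and SSD-fed WT mice.

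Cell cycle genes were near the healthy level or not called. Of 30 tested members, 1 rose, 0 fell, 18 were near (60%) and 11 were neither (median -0.08), against the 78.1% of all genes that were near. In SSD-fed WT mice 17 of the same 30 rose (median 1.24). Mki67, which marks dividing cells, was at 25.3, 41.3, 20.9 and 39.7 in NCD-fed WT mice, at 42.5, 32.1 and 24.9 in SSD-fed Klrk1-/- mice and at 788, 162, 154, 387 and 79.2 in SSD-fed WT mice. It overlapped with the healthy mice (0.08 ± 0.30, 95% interval -0.56 to 0.73) and lay below every SSD-fed WT mouse. Against the latter it fell by 2.77 ± 0.61 (limma adjusted p = 0.041), but the call held in 2 of 8 fits (adjusted p = 0.144 without SSD-fed Klrk1-/- mouse 2). Top2a, the mitotic topoisomerase, was at 27.0, 29.7 and 17.1 against 27.7, 41.3, 27.4 and 35.3 in healthy mice and 59.6 to 296 in SSD-fed WT mice, and it fell by 2.59 ± 0.45 against the latter (limma adjusted p = 0.0188), a call that held in 5 of 8 fits (adjusted p = 0.0877 without SSD-fed Klrk1-/- mouse 3). Ccnd1, cyclin D1, was near at 0.25 ± 0.18. The exception was Cdt1, which licenses replication origins, at 102, 81.1 and 75.4 against 36.2, 31.2, 24.8 and 32.0, a rise of 1.45 ± 0.20 (limma adjusted p = 0.000263).

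Few matrix genes were called. Of 31 stellate cell and matrix genes, 1 rose (3.23%, as over all genes), 0 fell and 22 were near (71.0%; median 0.36), and of 19 collagen genes, 0 rose, 1 fell (5.26%, against 3.79%) and 13 were near (68.4%; median 0.28). Both shares of near genes were below the 78.1% of all genes. In SSD-fed WT mice 8 and 5 of the same genes rose, but these mice were not alike. The median log2 difference of the 31 stellate cell and matrix genes from the healthy mean was 1.91, 0.87, 0.90, 0.64 and -0.04 in SSD-fed WT mice 1 to 5 and 0.39, 0.44 and 0.34 in SSD-fed Klrk1-/- mice. For the collagens it was 1.86, 0.90, 0.82, 0.81 and -0.13 and 0.34, 0.48 and -0.0033. SSD-fed WT mouse 5 thus lay below all SSD-fed Klrk1-/- mice on both lists and the other SSD-fed WT mice above them. Col1a1, the main fibrillar collagen, was at 270, 354, 525 and 468 in NCD-fed WT mice and at 556, 671 and 358 in SSD-fed Klrk1-/- mice, overlapping at 0.38 ± 0.24 (95% interval -0.13 to 0.90). SSD-fed WT mice were at 5027, 1432, 1499, 1324 and 358, so mouse 1 stood high and mouse 5 at the level of the Klrk1-/- mice, and the difference of both SSD-fed groups did not pass (-1.44 ± 0.63, limma adjusted p = 0.21). Acta2, smooth muscle actin of activated stellate cells, was at 87.9, 94.8 and 87.4 against 72.4, 47.3, 115 and 96.0, near at 0.20 ± 0.25. Hhip, a hedgehog-binding protein gene, was the only one of the 31 called against SSD-fed WT mice, and it was higher, at 59.9, 57 and 52.3 against 20.4 to 38.4 (1.08 ± 0.23, limma adjusted p = 0.0398, called in 2 of 8 fits, adjusted p = 0.17 without SSD-fed Klrk1-/- mouse 1). Lox, the collagen cross-linking oxidase, was neither called nor near at -0.22 ± 0.36, and Hhipl1 neither at 0.87 ± 0.34 (limma adjusted p = 0.0768).

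A pair of matrix genes stood away. Postn, periostin, was at 164, 177, 185 and 166 in NCD-fed WT mice and at 545, 512 and 401 in SSD-fed Klrk1-/- mice, a rise of 1.47 ± 0.13 (limma adjusted p = 5.76e-06). It was at 236 to 328 in NCD-fed Klrk1-/- mice and was also called higher in SSD-fed WT than in NCD-fed WT mice. Col15a1, a collagen of basement membranes, was at 240, 240, 297 and 257 in NCD-fed WT mice and at 42.5, 65.0 and 65.1 in SSD-fed Klrk1-/- mice, and it fell by 2.17 ± 0.17 (limma adjusted p = 2.55e-06). NCD-fed Klrk1-/- mice were at 94.2 to 121 and SSD-fed WT mice at 126 to 231, and both groups also lay below all healthy mice. Against SSD-fed WT mice Col15a1 fell by 1.56 ± 0.22 in 7 of 8 fits (limma adjusted p = 0.00885, and 0.0543 without SSD-fed Klrk1-/- mouse 1). The 4 stellate cell markers summed to 1675 to 1929 in SSD-fed Klrk1-/- mice and to 1084 to 1332 in NCD-fed WT mice, and their part in these values was not tested.

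Some macrophage genes rose. Of 24 genes of recruited and lipid-associated macrophages, 6 rose (25.0%, against 3.23% of all genes), 1 fell and 12 were near (50%, against 78.1%; median 0.41), whereas in SSD-fed WT mice 12 rose and 1 fell (median 1.05). The direct comparison with SSD-fed WT mice called 4 of the 24, all lower, namely Lgals3, Mmp12, Cd68 and Mpeg1, the last in 2 of 8 fits (adjusted p = 0.147 without SSD-fed Klrk1-/- mouse 2). Gpnmb, a lysosomal glycoprotein of lipid-laden macrophages, was at 4.82, 6.04, 7.82 and 11 in NCD-fed WT mice, at 57, 30.5 and 15.4 in SSD-fed Klrk1-/- mice and at 117 to 1614 in SSD-fed WT mice. It rose by 1.94 ± 0.45 above the healthy level (limma adjusted p = 0.00685, and 0.0552 without SSD-fed Klrk1-/- mouse 1), and the 3 groups did not overlap. Mmp12, the macrophage elastase, rose by 1.75 ± 0.44 (limma adjusted p = 0.0103, and 0.0741 without the same mouse), at 33.8, 22.5 and 14.6 against 3.91 to 9.65. SSD-fed WT mice were at 107 to 1060. Mmp12 fell by 3.39 ± 0.61 against them in 4 of 8 fits (adjusted p = 0.098 without SSD-fed Klrk1-/- mouse 3). Fabp5, the fatty acid-binding protein of the list that hepatocytes also express, fell by 4.95 ± 0.25.

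Lgals3, galectin-3, was at 128, 128, 103 and 127 in NCD-fed WT mice, at 212, 179 and 147 in SSD-fed Klrk1-/- mice and at 577 to 2088 in SSD-fed WT mice. It lay above the healthy mice without overlap but within the near range (0.55 ± 0.16, 95% interval 0.21 to 0.89, limma adjusted p = 0.021). Cd68, a pan-macrophage marker, was at 172, 166, 211 and 230, at 291, 271 and 276 and at 531 to 1145 in the same order, again near at 0.53 ± 0.14 and without overlap. Against SSD-fed WT mice Lgals3 fell by 2.28 ± 0.36 and Cd68 fell by 1.36 ± 0.21, each in 5 of 8 fits, with a highest adjusted p of 0.076 without SSD-fed Klrk1-/- mouse 3 for Lgals3 and of 0.0738 without mouse 1 for Cd68.

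Of 16 genes of resident Kupffer cells, 1 rose, 1 fell and 12 were near (75.0%, about the 78.1% of all genes). Clec4f, a lectin particular to these cells in the liver, was at 2510, 1917 and 1972 against 1952, 1820, 1860 and 1805 in healthy mice, near at 0.19 ± 0.11. The iron exporter gene Slc40a1 rose by 1.24 ± 0.09. Marco, a scavenger receptor, was at 98.9, 110, 134 and 126 in NCD-fed WT mice and at 65.7, 36.1 and 35.1 in SSD-fed Klrk1-/- mice, and it fell by 1.39 ± 0.23 (limma adjusted p = 0.000712). NCD-fed Klrk1-/- mice were at 40.6 to 83.3 and SSD-fed WT mice at 133 to 515, so both Klrk1-/- groups lay below the healthy mice and SSD-fed WT mice reached above them. Against SSD-fed WT mice Marco fell by 2.45 ± 0.39 in 6 of 8 fits (limma adjusted p = 0.0138, and 0.0785 without SSD-fed Klrk1-/- mouse 3).

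Of 17 chemokine genes, 2 fell (11.8%, against 3.79% of all genes), 0 rose, 10 were near (58.8%, against 78.1%) and 5 were neither. Cxcl10, an interferon-induced chemokine, was at 95.3, 52.4, 63.9 and 91.6 in NCD-fed WT mice, at 56.0, 81.9 and 87.4 in SSD-fed Klrk1-/- mice and at 114 to 264 in SSD-fed WT mice, near the healthy level at 0.00 ± 0.24. It fell by 1.25 ± 0.24 against SSD-fed WT mice (limma adjusted p = 0.0293), in 2 of 8 fits (adjusted p = 0.14 without SSD-fed Klrk1-/- mouse 1). Ccl2, which draws monocytes, was neither called nor near at -0.51 ± 0.46, with 24.1, 24.9 and 9.43 against 44.6, 11.1, 29.98 and 29.8. SSD-fed WT mice were at 40.9 to 190, above all SSD-fed Klrk1-/- mice, but the difference from them did not pass (-1.88 ± 0.50, limma adjusted p = 0.0745). Ccl9 fell by 1.85 ± 0.14. Cxcl1, a neutrophil chemokine, was called lower by the test but the groups overlapped, at 57.9, 85.1 and 66.0 against 1556, 65.4, 517 and 1856. The call held in 4 of 7 fits (adjusted p = 0.0717 without NCD-fed WT mouse 1). SSD-fed WT mice were at 115 to 452 for Cxcl1, above all SSD-fed Klrk1-/- mice, but this difference did not pass either (-1.56 ± 0.41, limma adjusted p = 0.0699). Cxcl2, another neutrophil chemokine, was at 1.93, 4.02 and 1.71 against 12.1, 8.05, 18.2 and 13.2, without overlap, and at 8.16 to 39.2 in SSD-fed WT mice. Its mean was under the minimum of 10 for the test against the healthy mice, and its difference from SSD-fed WT mice did not pass (limma adjusted p = 0.0522). Of 28 interferon-stimulated genes 24 were near (85.7%) and 0 were called. Of 19 genes of the MHC and antigen presentation 17 were near (89.5%) and 0 were called. In SSD-fed WT mice 2 of the 28 rose (7.14%, about the 6.11% of all genes) and 5 of the 19 rose (26.3%). The direct comparison with SSD-fed WT mice called 0 genes of either list, and the difference between these counts was not tested.

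All 35 cytosolic ribosomal protein genes were near (range -0.35 to 0.12), as were 31 of 34 respiratory chain genes (91.2%), against 78.1% of all genes. The shares were 13 of 15 for hepatocyte genes (86.7%) and 19 of 22 for genes of sinusoidal endothelium (86.4%), the last at a median of 0.51. Cps1, an enzyme of the urea cycle in the hepatocyte list, was neither called nor near at -0.95. Alb, the albumin gene, was at 1449480, 1519500 and 1621090 against 1865450, 1664220, 1755520 and 1584260, near at -0.17 ± 0.22. Hnf4a, the master regulator of hepatocyte identity, was near at 0.04 ± 0.10.

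A set of 28 genes (0.219% of 12803 tested in both comparisons, which share the SSD-fed Klrk1-/- mice) was near the healthy level and called against SSD-fed WT mice, 23 of them lower (0.18%) and 5 higher (0.0391%) in Klrk1-/- mice. Of the 28, 21 were near in all 7 fits that left out 1 mouse. All 28 kept their sign against SSD-fed WT mice in the 8 fits of that comparison, 10 were called in at least 4 of them and 2 in all 8, Atf3 and Hal. Atf3, a stress-induced transcription factor, was at 36.2, 22.2, 44.3 and 33.1 in NCD-fed WT mice, at 48.3, 36.9 and 26.6 in SSD-fed Klrk1-/- mice and at 601, 204, 202, 240 and 209 in SSD-fed WT mice. The healthy and the Klrk1-/- mice overlapped (0.13 ± 0.28), and Atf3 fell by 2.82 ± 0.35 against SSD-fed WT mice (limma adjusted p = 0.00497). Besides the genes above, the 23 lower genes included Tnfaip3, an inhibitor of NF-κB signalling, Jun, the chemerin receptor gene Cmklr1, the haem oxygenase gene Hmox1, and Mcm3, Mcm6 and Chaf1a of DNA replication. These calls held in few fits, in 5 of 8 for Mcm6, 4 for Cmklr1, 2 for Tnfaip3 and 1 each for Jun, Hmox1, Mcm3 and Chaf1a, and the highest adjusted p, in each case without 1 of the SSD-fed Klrk1-/- mice, was 0.0773 for Mcm6 to 0.175 for Hmox1.

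The 5 genes in the other direction were Hal, Rdh16f2, Hdhd3 (called in 3 of 8 fits, adjusted p = 0.102 without SSD-fed Klrk1-/- mouse 1), Dact2 (3 of 8, 0.154 without the same mouse) and Ptgds (4 of 8, 0.106 without mouse 2). Hal, the histidine ammonia-lyase, was at 11565, 11056, 9643 and 9611 in NCD-fed WT mice, at 7966, 6927 and 9498 in SSD-fed Klrk1-/- mice and at 2950 to 4270 in SSD-fed WT mice. The Klrk1-/- mice were below all healthy mice (-0.37 ± 0.12) and above all SSD-fed WT mice by 1.18 ± 0.15 (limma adjusted p = 0.00588). Rdh16f2, a retinol dehydrogenase family gene, was at 2204, 2234 and 2144 against 2448, 2312, 2521 and 1805 in healthy mice and 918 to 1227 in SSD-fed WT mice, near at -0.04 ± 0.12 and 1.04 ± 0.11 above the SSD-fed WT mice, a call that held in 7 of 8 fits.

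**Figure D5:**
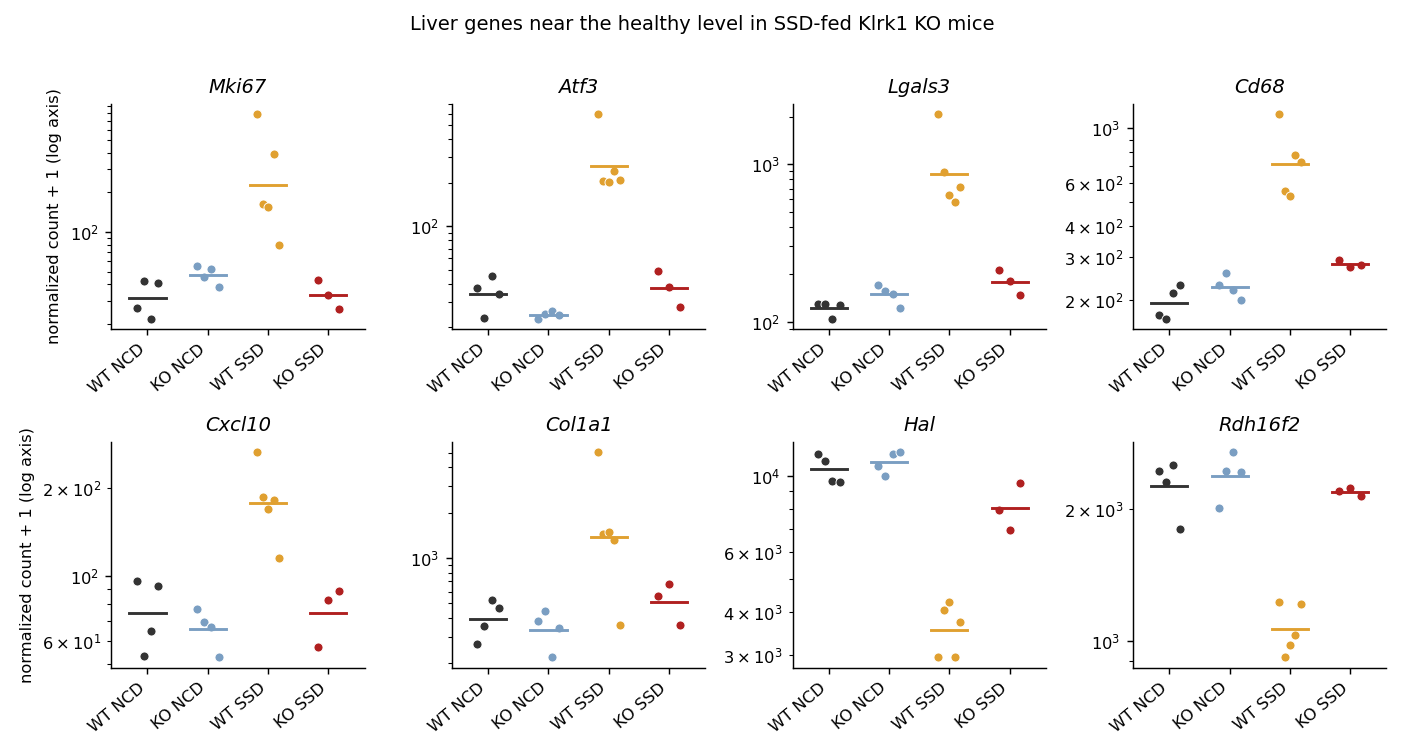
Normalized count plus 1 (log axis) of 8 genes near the healthy level in SSD-fed Klrk1-/- mice, with 1 point per mouse, bars at the mean on the log scale and 4 groups per panel. In 7 of the panels the SSD-fed WT mice lie apart from the SSD-fed Klrk1-/- mice, while for Col1a1 SSD-fed WT mouse 5 lies at 358, within the range of the Klrk1-/- mice.

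Further single genes showed extreme differences. Chrna4, a nicotinic receptor subunit, was at 207, 831, 1603 and 524 in NCD-fed WT mice and at 0, 3.21 and 1.71 in SSD-fed Klrk1-/- mice. Moxd1, a monooxygenase-like gene of the growth hormone list, was at 144, 106, 1916 and 539 and at 0.966, 0.803 and 0. Both were called lower without overlap and were at 0 to 3.55 in SSD-fed WT mice, and no fold is given for them, as libraries of 1 group were at or near 0. Selenbp2 fell by 5.73 ± 0.17. Rad51b, a recombination factor gene, rose by 6.05 ± 0.24, from 8.44, 9.06, 5.21 and 12.1 to 638, 660 and 568, and was at 311 to 660 in SSD-fed WT mice. Rgs16, a regulator of G protein signalling, rose by 4.76 ± 0.67.

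Some extremes followed the genotype or 1 mouse. Dab1, an adaptor of reelin signalling, was at 2.41, 3.02, 1.30 and 5.52 in NCD-fed WT mice, at 74.4, 104 and 141 in SSD-fed Klrk1-/- mice, at 41.1 to 72.1 in NCD-fed Klrk1-/- mice and at 4.22 to 17.9 in SSD-fed WT mice, so that no Klrk1-/- mouse overlapped with a WT mouse. Gm9008 was at 4.82, 2.01, 0 and 0, at 81.1, 41.0 and 71.1, at 40.6 to 102 and at 0 to 5.07 in the same order. It lies on chromosome 6 like Klrk1 (76472415 to 76474767), but farther than 10 Mb from it. Of 129 tested genes within 10 Mb of Klrk1, 8 were called (6.2%), against 7.02% of all genes, and Klrk1 itself was among them. This share does not separate genotype from diet. Rilpl1, chosen after its values were seen, was at 57.9, 63.4, 45.6 and 56.3 in NCD-fed WT mice, at 950, 900.2 and 902 in SSD-fed Klrk1-/- mice and at 58.1 to 101 in SSD-fed WT mice, a rise of 4.02 ± 0.13. NCD-fed Klrk1-/- mice were at 591, 101, 47.3 and 605, so a pair of them were high and the others near WT mice. Myo15, a myosin gene, was at 1631, 73.1 and 3.43 against 0 to 3.31, and its call (limma adjusted p = 0.0187) was lost without SSD-fed Klrk1-/- mouse 1 (adjusted p = 0.0826).

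Of the NKG2D ligand genes, Raet1d and Raet1e were high enough to be tested, and both fell. Ulbp1, which encodes MULT1, was not tested and was at 8.44, 17.1, 3.91 and 9.93 in NCD-fed WT mice and at 7.73, 9.64 and 12 in SSD-fed Klrk1-/- mice, overlapping. Hcst, the adaptor of the receptor, was neither called nor near. Raet1d was at 185, 210, 133 and 442 in NCD-fed WT mice and at 36.7, 31.3 and 41.1 in SSD-fed Klrk1-/- mice, and it fell by 2.56 ± 0.31 (limma adjusted p = 8.43e-05) without overlap, and Raet1e fell by 2.34 ± 0.34. In SSD-fed WT mice they were at 31.8 to 191 and 16.3 to 67.1 and were called lower as well. In NCD-fed Klrk1-/- mice, Raet1d was at 196 to 703. The RAE-1 genes are close copies of each other, so their separate values are uncertain. Egfr, the receptor of several growth factors, fell by 1.11 ± 0.20 (limma adjusted p = 0.00142) but lost its call under the equal-total scaling.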

How the data were processed

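Liver RNA of 16 mice was sequenced as single reads of 100 bases. The authors checked reads with FastQC, aligned them with STAR to GRCm39 and counted genes with FeatureCounts on GENCODE M26, with DESeq2 named for their comparisons, and versions, use of strand and the computation of size factors were not given in the sources used here. The labels name an mRNA library kit and the methods a total RNA kit. The deposited signal is the normalized count, and dividing by the value of 1 read gave whole reads (within 0.01 reads) for 100.0% of values in each library. Fold changes are differences of log2(value + 1), tested with limma 3.58.1 (trend, R 4.3.3) over genes with a mean of at least 10, two-sided, with Benjamini-Hochberg adjustment over all genes tested. edgeR 4.0.16 (421 higher, 507 lower) and DESeq2 1.42.0 on the recovered reads, other filters, pseudocounts, scalings, a replicate block and leaving out each mouse were alternatives. The test was first run on simulated data. No pair of replicates agreed within sampling noise.

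Gene lists, members and tests were chosen with earlier results of these data known. Named genes were Klrk1, the 10 largest rises and falls without overlap, up to 6 members per list by size of change, level and nearness, genes the study names and, among near genes, the 5 largest differences each way from SSD-fed WT mice. Further members are named for their roles and were chosen after their values were seen. The deposited fold changes and p-values of the authors were not used.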

Additional observations from a re-analysis of the deposited data

Results flagged for a closer look

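Values per mouse of 49 genes were searched for single mice that stood apart from their own group (Dixon's ratio at 95%) in the groups of 4 and 5 mice. Of 147 sets of values 17 held such a mouse. About 7.3 would be expected by chance if the sets were independent and normally spread. Sets of different genes share the same mice, so this comparison is not a test. The 3 SSD-fed Klrk1-/- mice are too few for this search.

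Among SSD-fed WT mice, mouse 1 was the highest for 8 genes: Gpnmb (1613.5, the next mouse 218.9), Mmp12 (1060, next 252), Lgals3 (2088, next 891), Atf3 (601, next 240), Col1a1 (5027, next 1499), Ccnd1 (3160, next 1324), Psat1 (694, next 406) and Dab1 (17.9, next 7.99). All 3 SSD-fed Klrk1-/- mice lay below the next mouse for the first 7 of these genes, and above it for Dab1. Mouse 5 of that group was the highest for Abcg5, at 7807 against 6193 in the next.

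Among the healthy reference mice, Psat1 was highest in NCD-fed WT mouse 5 (15.4, next 12.1) and Lgals3 lowest in NCD-fed WT mouse 3 (103, next 127). Lgals3 was near in 6 of the 7 fits that left out 1 mouse.

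Among NCD-fed Klrk1-/- mice, mouse 1 was highest for Bhmt (96972, next 73068) and Noct (293, next 189) and lowest for Col15a1 (94.2, next 117). Mouse 3 was highest for Raet1d (703, next 275) and Cyp2b9 (18.7, next 2.49), and mouse 4 lowest for Marco (40.6, next 78.4).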

How the results depend on the processing

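Of 178 named genes with a test, none changed sign among those called in the main fit or in the alternative. The sign of genes called in neither fit was not compared. All 178 kept their side of the threshold with edgeR, DESeq2, a pseudocount of 0.5 and no minimum. They also did with all 4 groups in 1 model and with the replicate block. The number was 170 with equal totals, 173 with quantile normalization and 176 with a pseudocount of 10. Abhd5, Calr, Il18, Zap70, Egfr, Hc and Apom lost their call and Hhipl1 gained one with equal totals, which also moved 31 of 44 list medians by more than the spread between mice. Calr, Egfr, Mup3, Hc and Apom lost their call with quantile normalization, which moved 12 of the 44 medians, and Saa3 and Hbegf with a pseudocount of 10. Counts of SSD-fed Klrk1-/- against NCD-fed WT mice moved most with the threshold, the minimum and the total: rises (417) were 260 with a minimum mean of 50, 755 with equal totals and 1058 at a fold of 1.5, and falls (489) were 1027 at a fold of 1.5. Leaving out 1 mouse gave 362 to 477 rises, 448 to 509 falls and 9515 to 10146 near genes. Mice of the same replicate number had correlations of 0.05, -0.32 and -0.08 for numbers 1 to 3, after the group means were taken off. These are too few to show whether the numbers pair mice. The replicate block gave 467 rises, 501 falls and 9612 near genes.

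For SSD-fed Klrk1-/- against SSD-fed WT mice the 151 calls became 96 with a pseudocount of 10, 85 with a minimum mean of 50, 332 with the replicate block, 293 with all groups in 1 model, 366 with DESeq2, 279 at a fold of 1.5 and 35 to 251 without 1 mouse. For SSD-fed against NCD-fed WT mice the 1179 calls became 749 with a minimum mean of 50, 1950 with equal totals, 2522 at a fold of 1.5 and 1013 to 1367 without 1 mouse. For NCD-fed Klrk1-/- against NCD-fed WT mice the 219 calls became 744 at a fold of 1.5 and 132 to 258 without 1 mouse. The cause of these shifts was not tested. In SSD-fed Klrk1-/- against NCD-fed WT mice, 14.8% of genes were neither called nor near.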
